A study of Homo sapiens with 10 samples.

Results

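ABCA12, ABCC11, ABCA4 and ABCC5 are 4 ABC transporter genes that are each the nearest gene of at least 1 TRPS1 peak in T47D cells. They were chosen by the positions of the peaks, through the study's annotation of its peak list, in which they are 4 of 1441 named nearest genes and account for 5 of 1844 peaks. The peaks are therefore a description here and are not tested. ABCF3, another ABC family gene nearest to a peak, is not among the 4. Counts of calls among the 4 genes are likewise a description. The cells were T47D, an established line from a human breast cancer of luminal type. TRPS1 peaks were called from 2 libraries of chromatin immunoprecipitated with TRPS1 antibodies and 2 input libraries, which gave 1 list for the 4 libraries. RNA-seq was performed on T47D cells 72 h after transfection with control siRNA, TRPS1 siRNA or CHD4 siRNA, with 2 libraries in each group. The labels name an siRNA for CHD4, whereas the methods for the RNA-seq name an shRNA. Nothing in the labels states that the replicates were separate cultures, so the p-values measure the spread between these libraries, which may be technical.

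ABC transporters are membrane proteins that use ATP to move lipids, conjugated metabolites, nucleotides or drugs across membranes, and the A subfamily mainly handles lipids whereas the C subfamily mainly exports organic anions. TRPS1 is an atypical GATA-type zinc finger protein that represses transcription and recognizes the GATA sequence. CHD4 is the ATPase of the NuRD complex, which remodels nucleosomes and deacetylates histones. ABCA12 loads glucosylceramide into the lamellar granules of keratinocytes and is required for the lipid barrier of the skin. ABCC11 is an efflux pump for cyclic nucleotides and steroid conjugates and is known for its role in apocrine glands. ABCA4 moves retinoid conjugates of phosphatidylethanolamine in the outer segments of photoreceptors. ABCC5 is a broadly expressed exporter of cyclic nucleotides and other organic anions.

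The positions of the peaks are those of the deposited list on hg38, and the gene starts are those of RefSeq on GRCh38.p14. Each of the 4 genes lies on the minus strand. ABCA12 spans 207 kb at chr2:214931542-215138626 and was the only one of the 4 with 2 peaks that name it. The peak at chr2:215058328-215058702 was 375 bp wide and lay inside the gene, 79.9 kb from its first start site and 26.2 kb from the second RefSeq start site of ABCA12 at 215032086. The peak at chr2:215216834-215217144 was 311 bp wide and lay 78.2 kb upstream of the gene. The RefSeq start site closest to that upstream peak belonged to the uncharacterized locus LOC124907974, 33.7 kb away, so a different annotation takes this peak away from ABCA12. No other peak lay within 500 kb of the ABCA12 start. RefSeq also places the non-coding gene SNHG31 over part of ABCA12.

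ABCC11 spans 82.7 kb at chr16:48164819-48247539, and its peak at chr16:48250648-48251288 lay 3.11 kb upstream of the gene start. With 641 bp it was wider than 95.9% of all peaks, whose median width was 288.0 bp with a range from 207 to 1745 bp. This peak also lies inside LONP2, a peroxisomal protease gene that overlaps ABCC11. ABCA4 spans 128 kb at chr1:93992834-94121148, and its peak at chr1:94118170-94118422 was 253 bp wide and lay inside the gene, 2.73 kb from the start. ABCC5 spans 98.0 kb at chr3:183919934-184017884, and its peak at chr3:184018215-184018435 was 221 bp wide and lay 331 bp upstream of the start. It was the narrowest of the 5 peaks and the one closest to a gene start. A further 3 peaks lay inside ABCC5 but are annotated to the antisense gene ABCC5-AS1, at chr3:183966249-183966544, chr3:184006177-184006443 and chr3:184011134-184011471. The ABCC5 start had 8 peaks within 500 kb, compared with 1 each for ABCC11 and ABCA4. Of the 5 peaks that name the 4 genes, 3 lay within 5 kb of the gene start. Whether a peak falls in an exon or an intron was not analysed here.

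**Figure D1:**
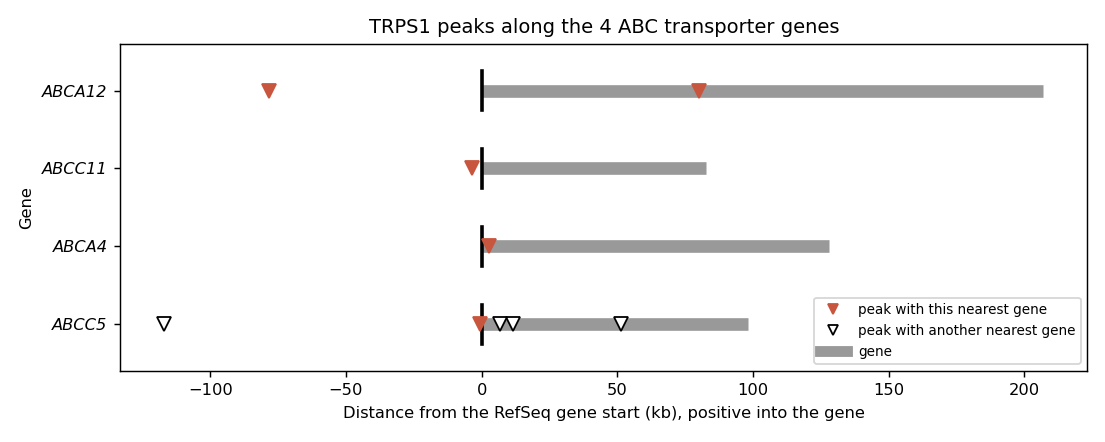
TRPS1 peaks (triangles, drawn at the peak centre) along the 4 genes (grey bars, to scale), with the distance from the RefSeq gene start in kb on the x axis, positive into the gene. The peaks of ABCC11, ABCA4 and ABCC5 lie near the start, both ABCA12 peaks lie about equally far on either side of it, and open triangles mark peaks annotated to another gene, among them 3 inside ABCC5.

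The sequence around the gene starts is shown because TRPS1, like other GATA proteins, is held to recognize WGATAR. RefSeq windows from 250 bases upstream to 50 bases downstream of a start site were searched on both strands for AGATAA, for the form of it that ends in G, AGATAG, and for the forms that begin with T, which are TGATAA in the first case and TGATAG in the second. Matches were allowed to share letters with each other. A capitalized stretch marks a match, a match is a description and not a binding site, and windows printed without capitals held none. Of 35116 RefSeq windows, 25.0% held at least 1 match, and of the 369 windows that overlap a TRPS1 peak, 170 (46.1%) did. RefSeq windows matched 3 of the 4 genes by symbol. The first start windows of ABCA12 (chr2:215138577-215138876, minus strand), ABCC11 (chr16:48247490-48247789, minus strand) and ABCC5 (chr3:184017835-184018134, minus strand) held no match. The second start window of ABCA12 (chr2:215032037-215032336) and the third of ABCC11 (chr16:48232222-48232521) also held none and are not printed. The second start window of ABCC11 (chr16:48244539-48244838, minus strand) held TGATAG, which begins at position -173 relative to that start site. The last sequence is the only stretch under one of these peaks that falls in a RefSeq start window. It is the part of a peak inside ABCC5 that falls in the start window of ABCC5-AS1 (chr3:184006177-184006387, plus strand), and it held TTATCT, the reverse complement of AGATAA, beginning at position -3 relative to the start site of ABCC5-AS1. The same 211 bases of all windows held a match in 17.5%.
ABCA12 first start: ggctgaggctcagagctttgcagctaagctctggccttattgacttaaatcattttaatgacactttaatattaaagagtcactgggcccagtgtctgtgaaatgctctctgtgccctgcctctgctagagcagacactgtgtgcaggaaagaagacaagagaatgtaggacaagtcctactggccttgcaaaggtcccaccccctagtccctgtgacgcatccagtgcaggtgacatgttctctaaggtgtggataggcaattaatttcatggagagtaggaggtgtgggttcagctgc
ABCC11 first start: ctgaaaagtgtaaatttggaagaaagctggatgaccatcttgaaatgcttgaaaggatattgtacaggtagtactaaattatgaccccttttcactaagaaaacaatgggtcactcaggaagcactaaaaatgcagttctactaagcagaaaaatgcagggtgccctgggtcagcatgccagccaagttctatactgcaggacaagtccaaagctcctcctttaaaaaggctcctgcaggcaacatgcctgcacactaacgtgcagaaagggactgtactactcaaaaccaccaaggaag
ABCC11 second start: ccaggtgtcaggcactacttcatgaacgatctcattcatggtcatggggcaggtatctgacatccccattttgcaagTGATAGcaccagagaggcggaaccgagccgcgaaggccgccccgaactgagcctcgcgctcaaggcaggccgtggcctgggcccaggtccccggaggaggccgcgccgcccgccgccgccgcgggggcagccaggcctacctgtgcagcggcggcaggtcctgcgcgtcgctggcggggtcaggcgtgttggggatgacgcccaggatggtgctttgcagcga
ABCC5 start: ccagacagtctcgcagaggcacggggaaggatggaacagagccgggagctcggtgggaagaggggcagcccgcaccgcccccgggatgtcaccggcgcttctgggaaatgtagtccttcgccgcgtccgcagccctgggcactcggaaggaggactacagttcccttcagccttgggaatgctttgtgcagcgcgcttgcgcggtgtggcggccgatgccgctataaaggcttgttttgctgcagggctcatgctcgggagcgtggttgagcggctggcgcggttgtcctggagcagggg
Peak at the ABCC5-AS1 start: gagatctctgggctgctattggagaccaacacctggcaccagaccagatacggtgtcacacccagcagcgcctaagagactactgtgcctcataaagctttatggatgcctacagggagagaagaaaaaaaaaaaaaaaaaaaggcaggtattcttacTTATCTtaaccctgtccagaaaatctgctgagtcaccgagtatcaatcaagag

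The study followed ABCA12 with its own primers for chromatin and for RNA, which are shown because they are the only sequences for any of the 4 genes in its primer list. No primer occurs, on either strand, in the start windows of ABCA12, ABCC11, ABCC5 and ABCC5-AS1, the only windows searched for them. This does not place the primers, since the sequences of the ABCA12 peaks and transcripts were not searched. The primers are printed in lower case throughout.
ABCA12 chromatin forward primer: ggaatcagatgggcctatgt
ABCA12 chromatin reverse primer: tagctccaaggaagtctcag
ABCA12 RNA forward primer: ctactgctggatgagccgag
ABCA12 RNA reverse primer: cctcgtccaaacctgctctt

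The RNA-seq libraries held 10333138 to 14668358 counts, and 3 counts, taken as the limit of detection, correspond to 0.197 to 0.288 CPM, the count scaled to the library total. Levels below are CPM scaled with TMM factors over the 6 libraries. They were not divided by gene length, so they are compared between libraries and not between genes. TRPS1 had 1857 ± 583 CPM (SD, n = 2) in control siRNA, 944 ± 314 CPM (SD, n = 2) in TRPS1 siRNA and 2019 ± 610 CPM (SD, n = 2) in CHD4 siRNA, and both TRPS1 siRNA libraries lay below both controls (log2 fold change -0.97, SE 0.39, just short of a 2-fold difference). CHD4 fell from 293 ± 10.5 CPM (SD, n = 2) in control siRNA to 75.0 ± 29.3 CPM (SD, n = 2) in CHD4 siRNA. Control replicate 1 lay apart from the other libraries. Its score on the first principal component, which held 63.4% of the variance, was -114, against 8.86 to 31.2 for the other 5 libraries, and the control replicates correlated with r = 0.880 across genes, compared with 0.976 and 0.967 for the replicates of the knockdowns. Both knockdowns were compared with the same control libraries, so the value without control replicate 1 is given beside each call below that is lost without it. Luminal markers were all detected, and their summed level was 12816 to 16096 CPM in control siRNA, 6830 to 6987 CPM in TRPS1 siRNA and 5780 to 7949 CPM in CHD4 siRNA. Basal markers, of which 2 of 5 passed the filter, summed to 14.6 to 17.4 CPM in control siRNA, 34.3 to 37.7 CPM in TRPS1 siRNA and 32.1 to 52.6 CPM in CHD4 siRNA. Leukocyte and endothelial markers summed to at most 8.43 CPM and 1.40 CPM in any library, and fibroblast markers to 61.0 to 156 CPM. The luminal sum of control siRNA was carried mainly by the keratins. In TRPS1 and CHD4 siRNA KRT8 was at 0.270 and 0.276 of the control mean. KRT18 was at 0.527 and 0.365 and KRT19 at 0.381 and 0.368. The mean of XBP1 was also lower, at 0.488 and 0.486, as were those of ESR1 (0.651 and 0.653) and GATA3 (0.714 and 0.540). GATA3 had 899 and 430 CPM in the control libraries (replicates 1 and 2). It had 532 and 418 CPM in TRPS1 siRNA, which overlapped control siRNA, and 426 and 292 CPM in CHD4 siRNA. PGR was at 0.622 and 0.946, CDH1 at 0.892 and 0.813, FOXA1 at 0.836 and 1.15, and EPCAM at 1.28 and 1.20. For each of these genes both knockdown groups overlapped control siRNA, and PGR had 674 and 2084 CPM in the control libraries. The basal sum rested on the 2 markers that passed the filter. The smooth muscle actin ACTA2 was at 1.83 and 1.87 of the control mean. TP63, with 27 and 25 counts in the control libraries, was at 5.17 and 8.36. Both control libraries were under the 2 CPM of the filter, so TP63 passed it only through the knockdown libraries, where it was high. The study selected TP63 for its large rise in these same libraries, so its rise here is not independent evidence. The basal keratins KRT5, KRT14 and KRT17 had at most 2, 6 and 8 counts. The leukocyte marker PTPRC had at most 3 counts and the fibroblast marker DCN at most 1 in any library. The luminal and basal sums moved with the knockdowns, as did 3 of the 4 transporters in at least 1 knockdown, and their part in the results was not tested. In such bulk libraries fewer cells of a type and less RNA per cell cannot be told apart.

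Silencing TRPS1 was compared with control siRNA to ask which genes change when TRPS1 is reduced. ABCA12 and ABCA4 were higher, ABCC11 was lower and ABCC5 did not pass the test. A gene is called here by the rule of the study, which asks for more than a 2-fold difference together with p under 0.05 before adjustment, here in edgeR's quasi-likelihood F-test. By this rule 2 of the 4 genes were higher and 1 was lower, where 2.70% (349 of 12921) of all tested genes were higher and 3.17% (410) were lower. No gene of the 12921 had an adjusted p under 0.05 in this test, while 902 (6.98%) had an unadjusted p under 0.05, and edgeR's likelihood ratio test and DESeq2 gave 34 and 39 genes at an adjusted p under 0.05. In 3 of the 4 genes the groups did not overlap, which was also the case for 44.1% of all tested genes.

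ABCA12 had 108 and 174 CPM in the control siRNA libraries (replicates 1 and 2), 386 and 296 CPM in the TRPS1 siRNA libraries and 330 and 231 CPM in the CHD4 siRNA libraries. Both libraries of each knockdown lay above both control libraries, and the knockdowns overlapped each other. The means were 141 ± 46.2, 341 ± 63.8 and 281 ± 70.1 CPM (SD, n = 2 each). Upon TRPS1 silencing ABCA12 rose 2.42-fold (log2 fold change 1.28, SE 0.38, adjusted p = 0.659, edgeR's quasi-likelihood F-test). The study named ABCA12 for its rise in these libraries, so this is not independent evidence of its direction. The study also reported ABCA12 as higher in quantitative PCR of RNA after either silencing. By quantitative PCR of chromatin it reported TRPS1 and CHD4 at the regulatory region of ABCA12. Without control replicate 1 the log2 fold change of ABCA12 was 0.98, just under the fold threshold, with an adjusted p of 0.0678 in edgeR. Without TRPS1 replicate 1 it was 1.09 and missed an unadjusted p under 0.05, where the remaining TRPS1 library is assumed to vary like the controls. With the control replicate 2 left out it was 1.66, so ABCA12 was higher in each of these fits.

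ABCC11 had 269 and 266 CPM in the control libraries, 109 and 93.4 CPM in the TRPS1 siRNA libraries and 114 and 76.5 CPM in the CHD4 siRNA libraries. The control libraries were nearly equal, and each knockdown library had less than any control library. The means were 267 ± 1.50, 101 ± 11.3 and 95.4 ± 26.7 CPM (SD, n = 2 each). ABCC11 fell by 1.40 on the log2 scale upon TRPS1 silencing (SE 0.32, adjusted p = 0.659, edgeR's quasi-likelihood F-test), the opposite direction to ABCA12. Leaving out either control library changed this little (log2 fold changes of -1.39 and -1.40). The call was lost without TRPS1 replicate 1 (-1.50) and without TRPS1 replicate 2 (-1.28), fits in which the group has a single library and an unadjusted p under 0.05 was missed. LONP2, which overlaps ABCC11, had a log2 fold change of 0.00 (SE 0.34). The counting is not stated to use strand, so reads of these genes where they overlap cannot be told apart.

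ABCA4 was the least abundant of the 4 in counts, with 24 and 56 counts in the control libraries, 149 and 374 in the TRPS1 siRNA libraries and 33 and 40 in the CHD4 siRNA libraries. In CPM these were 1.76 and 4.23, 14.3 and 24.5, and 3.08 and 3.21. Only the TRPS1 siRNA libraries stood out, and the control and CHD4 siRNA libraries overlapped. The means were 2.99 ± 1.74, 19.4 ± 7.25 and 3.14 ± 0.0912 CPM (SD, n = 2 each). ABCA4 rose 6.51-fold upon TRPS1 silencing (log2 fold change 2.70, SE 0.61, adjusted p = 0.659, edgeR's quasi-likelihood F-test), which ranked 54 among the rises of 12921 genes. Control replicate 1 was under the 2 CPM of the filter, so ABCA4 entered this comparison mainly through the libraries in which it was high. The log2 fold change was 2.21 without control replicate 1 and 3.47 without control replicate 2, so the size depends on the control library while the call held in each fit that left out 1 library. At an adjusted p ABCA4 passed in edgeR's likelihood ratio test (0.0306) and in DESeq2 (0.0293).

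ABCC5 had 281 and 259 CPM in the control libraries, 335 and 228 CPM in the TRPS1 siRNA libraries and 343 and 281 CPM in the CHD4 siRNA libraries. The control libraries lay between the TRPS1 siRNA libraries, and the lower CHD4 siRNA library equalled the higher control library to within 1 CPM. The means were 270 ± 15.5, 281 ± 75.8 and 312 ± 43.5 CPM (SD, n = 2 each). The log2 fold change of ABCC5 upon TRPS1 silencing was 0.06 (SE 0.34, adjusted p = 0.956, edgeR's quasi-likelihood F-test), and it was -0.22 without TRPS1 replicate 1. ABCC5-AS1, to which 3 peaks inside ABCC5 are annotated, had at most 2 counts in any library, which is under the limit of detection. ABCC5 had the smallest difference of the 4 genes in this comparison, whereas upon CHD4 silencing ABCA4 had the smallest (log2 fold change 0.08, against 0.22 for ABCC5). A relation between the peaks and these differences was not tested.

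**Figure D2:**
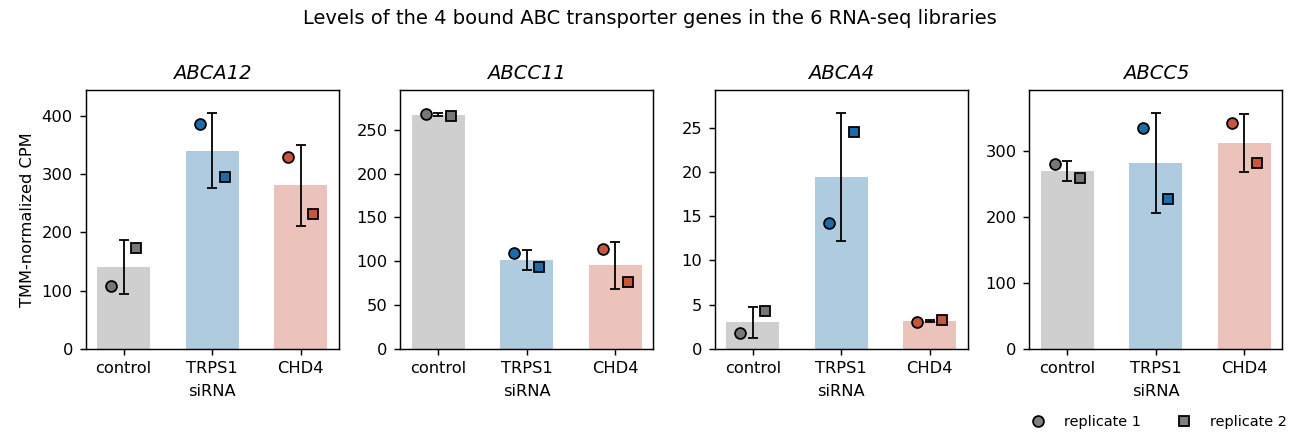
TMM-normalized CPM of the 4 genes in the 6 RNA-seq libraries, by siRNA, on linear axes that start at 0. Bars are means, error bars are SD (n = 2), circles are replicate 1 and squares are replicate 2, and both knockdowns lie above control for ABCA12 and below it for ABCC11, whereas ABCA4 is high in TRPS1 siRNA and close to 3 CPM in the other groups.

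CHD4 was silenced to ask which genes change when the NuRD ATPase is reduced. ABCA12 was higher and ABCC11 lower than in control siRNA, and ABCA4 and ABCC5 did not pass the test. Of all tested genes, 2.60% (336 of 12918) were called higher and 2.85% (368) lower, compared with 1 and 1 of the 4 genes. In 3 of the 4 the groups did not overlap, against 39.8% of all tested genes. No gene had an adjusted p under 0.05, 769 (5.95%) had an unadjusted p under 0.05, and the likelihood ratio test and DESeq2 gave 58 and 50 genes. ABCA12 rose 2.001-fold (log2 fold change 1.00, SE 0.41, adjusted p = 0.792, edgeR's quasi-likelihood F-test), at the fold threshold itself. The call was lost without control replicate 1 (log2 fold change 0.71), without CHD4 replicate 1 (0.74) and without CHD4 replicate 2 (1.26, where the unadjusted p missed 0.05), and it was kept without control replicate 2 (1.38). ABCC11 fell by 1.48 on the log2 scale (SE 0.38, adjusted p = 0.792, edgeR's quasi-likelihood F-test). It remained at -1.46 without control replicate 1 and lost its call only without CHD4 replicate 2 (-1.19, where the unadjusted p missed 0.05) among the fits that left out 1 library. ABCA4 had a log2 fold change of 0.08 (SE 0.73, adjusted p = 0.985, edgeR's quasi-likelihood F-test), which was -0.41 without control replicate 1. ABCC5 had a log2 fold change of 0.22 (SE 0.35, adjusted p = 0.887, edgeR's quasi-likelihood F-test), with groups that did not overlap.

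The knockdowns share their control libraries, so they were also compared directly. ABCA4 was the one gene of the 4 that differed between them. It was lower in CHD4 siRNA than in TRPS1 siRNA (log2 fold change -2.62, SE 0.35, adjusted p = 0.0903, edgeR's quasi-likelihood F-test), the fall of rank 5 among 13143 tested genes, of which 1.56% (205) were called lower and 2.12% (278) higher. Its groups did not overlap, as in 46.9% of all tested genes. Every fit that left out 1 of these 4 libraries kept this call, with log2 fold changes from -2.96 to -2.15. The adjusted p of ABCA4 was 9.47e-08 in the likelihood ratio test, 3.17e-07 in DESeq2 and 0.955 with all 6 libraries in one fit. ABCA12 (log2 fold change -0.27, SE 0.24, adjusted p = 0.651), ABCC11 (-0.08, SE 0.23, adjusted p = 0.912) and ABCC5 (0.16, SE 0.23, adjusted p = 0.801) did not pass the quasi-likelihood test in edgeR, which does not show that their levels are equal. No gene had an adjusted p under 0.05 in this comparison, 2023 (15.4%) had an unadjusted p under 0.05, and the likelihood ratio test and DESeq2 gave 570 and 456 genes.

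**Figure D3:**
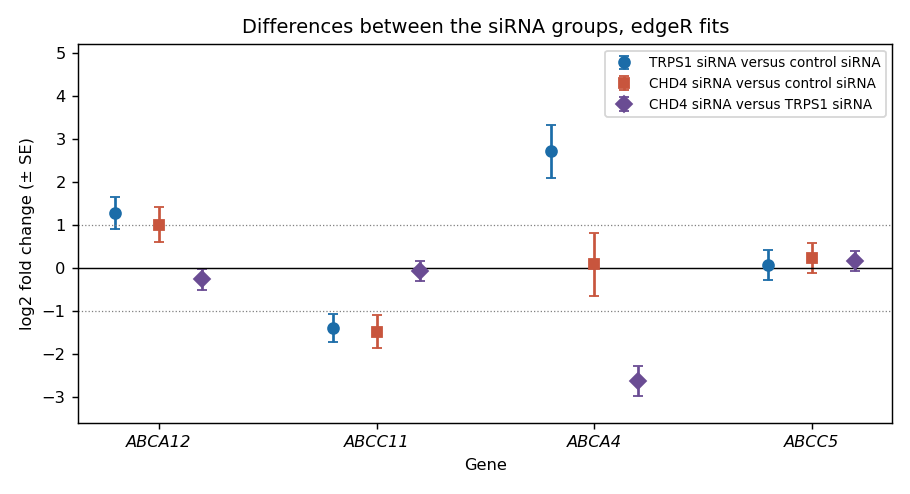
Log2 fold changes of the 4 genes in the 3 comparisons, with SE as error bars and dotted lines at a fold change of 2 in either direction. ABCA12 and ABCC11 moved in opposite directions in both knockdowns, and ABCA4 is the gene with a value far from 0 (-2.62) in the direct comparison.

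The order of the groups therefore differed between the genes. For ABCA12 control siRNA was lowest and the knockdowns overlapped. For ABCC11 control siRNA was highest and the knockdowns overlapped. For ABCA4 TRPS1 siRNA was highest, and control and CHD4 siRNA overlapped. For ABCC5 TRPS1 siRNA overlapped both other groups, and CHD4 siRNA lay above control siRNA by less than 1 CPM at its nearest libraries. Over the 6 libraries, the log2 CPM of ABCA12 and ABCC11 had a Pearson r of -0.766, and those of ABCA12 and ABCA4 of 0.663, given as a description since the libraries fall into the 3 groups.

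The other ABC transporters were examined on a list of 48 family genes, 44 of which had counts in the tables. Upon TRPS1 silencing 28 passed the filter on low counts, and 4 were called higher and 3 lower, including the genes described above. Without those 4 genes, 2 of 24 (8.33%) were higher and 2 (8.33%) lower, against 2.70% and 3.17% of all tested genes. Their median log2 fold change was -0.19, compared with -0.02 over all tested genes. ABCA1, which passes cholesterol and phospholipids to apolipoprotein, had 5.86 and 10.5 CPM in control siRNA, 40.9 and 31.3 CPM in TRPS1 siRNA and 90.5 and 48.3 CPM in CHD4 siRNA. All 4 knockdown libraries of ABCA1 lay above both controls, with log2 fold changes of 2.15 (SE 0.45, adjusted p = 0.659, edgeR) upon TRPS1 silencing and 3.09 (SE 0.53, adjusted p = 0.748, edgeR) upon CHD4 silencing. ABCB4, a phosphatidylcholine floppase of the bile canaliculus, was called higher upon TRPS1 silencing (2.13, SE 0.72) but had only 6 to 35 counts and passed the filter through the TRPS1 siRNA libraries alone. ABCB9, a lysosomal peptide transporter, fell by 1.01 on the log2 scale (SE 0.41) and ABCF2, a family member without membrane-spanning domains, fell by 1.08 (SE 0.39) upon TRPS1 silencing. Without control replicate 1 ABCB9 was at -0.56 and ABCF2 at -0.72 and both lost their call, so that none of the other family genes was lower, while ABCA1 and ABCB4 kept theirs (1.79 and 2.51).

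Upon CHD4 silencing 1 of the other 23 tested family genes (4.35%) was higher, ABCA1 (2.74 without control replicate 1), and none was lower. Of all tested genes, 2.60% were higher and 2.85% lower. The median log2 fold change of the 23 was -0.05. None of the other 23 was called in the direct comparison, although 6 had an unadjusted p under 0.05, as did 15.4% of all genes tested there. Their median was 0.15 and their smallest adjusted p in edgeR was 0.116. The whole family counts moved with single libraries. Without control replicate 1 they were 3 higher and 1 lower for TRPS1 siRNA. For TRPS1 siRNA they ranged from 2 to 6 higher and from 0 to 5 lower when each library was left out in turn, both of the highest counts being those without control replicate 2, and for CHD4 siRNA from 1 to 4 higher and from 0 to 3 lower. ABCF3, which also lacks membrane-spanning domains and is the fifth family gene on the list to be nearest to a peak (chr3:184185755-184186040, 159 bp upstream), had log2 fold changes of -0.18 (SE 0.37) upon TRPS1 silencing and -0.30 (SE 0.40) upon CHD4 silencing. ABCC13, a pseudogene outside the list that is also nearest to a peak, had 30 to 72 counts in the 6 libraries and log2 fold changes of 0.55 (SE 0.60) and 0.97 (SE 0.66).

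**Figure D4:**
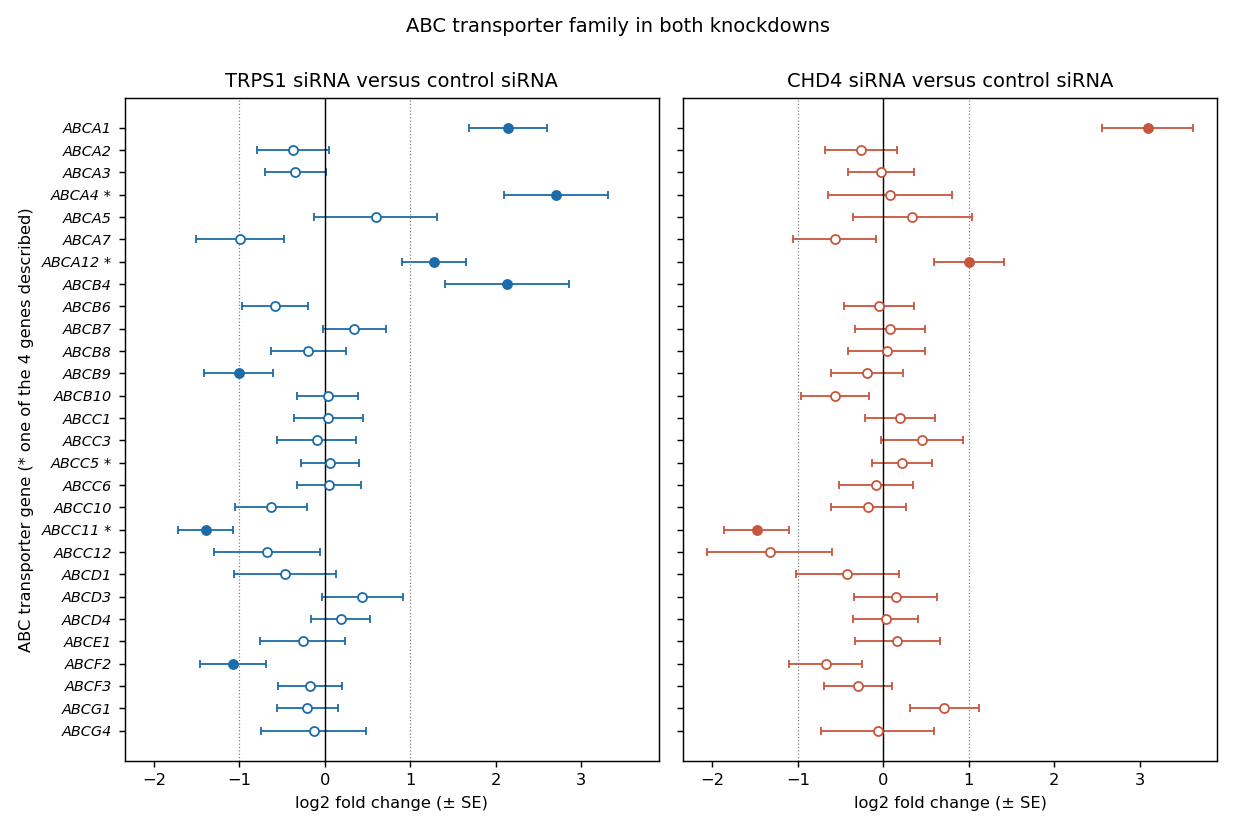
Log2 fold changes (± SE) of the ABC transporter genes that passed the filter, upon TRPS1 silencing (left) and CHD4 silencing (right), with filled points for genes past the call rule and dotted lines at a fold change of 2. Asterisks mark the 4 genes described, of which ABCA4 has the highest value on the left (2.70), and ABCA1 has the highest on the right (3.09).

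ABCA12 acts with enzymes that make and process the lipids of the skin barrier, so a list of 15 such genes was examined. Of the 11 that passed the filter, none was called higher in either knockdown and 2 were lower in each, where 3.17% and 2.85% of all tested genes were lower upon TRPS1 and CHD4 silencing. Upon TRPS1 silencing these were SMPD1, the acid sphingomyelinase, which fell by 1.61 on the log2 scale (SE 0.55), and NIPAL4, a membrane protein of keratinocytes, which fell by 1.16 (SE 0.48). Upon CHD4 silencing they were SMPD1, which fell by 1.34 (SE 0.53), and UGCG, which makes the glucosylceramide that ABCA12 carries and fell by 1.15 (SE 0.47). UGCG had 224 and 493 CPM in control siRNA, 195 and 209 CPM in TRPS1 siRNA and 189 and 132 CPM in CHD4 siRNA, so its level was lower in each knockdown library while that of ABCA12 was higher. Its log2 fold change upon TRPS1 silencing, -0.82 (SE 0.44, adjusted p = 0.663, edgeR), did not pass the test with all 4 libraries. The median log2 fold change of the list was -0.70 upon TRPS1 silencing and -0.47 upon CHD4 silencing, compared with -0.02 over all tested genes in each. SMPD1 had 60.0 and 23.3 CPM in the control libraries, and without control replicate 1 it lost its call in both knockdowns (-0.78 and -0.49). In that setting UGCG was called lower in both (-1.28 and -1.60) and NIPAL4 kept its call upon TRPS1 silencing (-1.01), which gave 2 and 1 genes lower. NIPAL4 was higher in CHD4 siRNA than in TRPS1 siRNA (log2 fold change 1.27, SE 0.26, adjusted p = 0.130, edgeR). Of 12 genes of apocrine secretion, in which ABCC11 acts, 3 passed the filter and none was called in any comparison.

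Genes with a start within 500 kb of the 5 peaks numbered 68, of which 29 were tested in each knockdown. None was called upon TRPS1 silencing, where 2.70% of all tested genes were higher and 3.17% lower. Upon CHD4 silencing CHRD, which encodes the BMP antagonist chordin, and KLHL24, an adaptor of a ubiquitin ligase, were higher by log2 fold changes of 1.93 (SE 0.74) and 1.32 (SE 0.49). CHRD and KLHL24 lie 362 and 383 kb from the ABCC5 peak, farther than every other tested gene around it, none of which was called. CHRD and KLHL24 are 2 of 29 genes, against 2.60% of all tested genes that were higher. Without control replicate 1 CHRD was at 3.22 and kept its call, and KLHL24 was at 0.87 and lost it. CHRD was also higher in CHD4 siRNA than in TRPS1 siRNA (2.49, SE 0.45, adjusted p = 0.104, edgeR). The closest tested neighbours of the peaks of ABCA12, ABCA4 and ABCC5 were ATIC, 94.9 kb away, ARHGAP29, 119 kb away, and EIF2B5, 117 kb away, and their log2 fold changes upon TRPS1 silencing were -0.29 (SE 0.31), -0.40 (SE 0.42) and 0.07 (SE 0.34). ABCC12, a paralog next to ABCC11, had 3.37 and 4.23 CPM in control siRNA, 1.82 and 2.89 CPM in TRPS1 siRNA and 1.96 and 1.04 CPM in CHD4 siRNA. It did not pass the test upon either silencing (log2 fold changes of -0.67, SE 0.62, and -1.33, SE 0.73). How the counting treated reads that match both of these similar genes is not stated.

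The genes whose log2 CPM followed each transporter most closely over the 6 libraries were listed by Pearson r among 13268 other genes, as a description. For ABCA12 they were LOC100129917, C7orf13, PTPN11, TSPAN18 and ZNF229, with r from 0.994 to 0.9995. For ABCC11 they were MAP6D1, MGP, ACOT1, VWA9 and YIPF1, with r from 0.987 to 0.992. For ABCA4 they were DCBLD2, MRPS14, DUSP5P1, KCNJ10 and TP53BP1, with r from 0.973 to 0.982. For ABCC5 they were POLR2M, DDX51, LRP2, RPL34 and AHRR, with r from 0.955 to 0.969.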

How the data were processed

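T47D cells were profiled by TRPS1 ChIP-seq (2 ChIP libraries, 2 inputs) and by RNA-seq after control, TRPS1 or CHD4 siRNA (2 libraries per group), grouped by their labels. The deposited RNA-seq tables, 1 per knockdown, hold raw counts per gene that the authors made with HTSeq. The deposited peak list, which the authors made with BWA and MACS2, holds positions only and no score. The submitters' processing notes name hg38. Nearest genes and primer sequences come from the study's supplementary tables.

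A gene was tested when it exceeded 2 CPM in at least 2 libraries of a comparison. edgeR (version 4.0.16, R 4.3.3) was used with TMM factors, the quasi-likelihood F-test, a prior count of 0.125 and Benjamini-Hochberg adjustment over all tested genes. SE was computed as the absolute log2 fold change over the square root of F. Levels were scaled with TMM factors over the 6 libraries. Fits were tested on simulated data. Depth was 10333138 to 14668358 counts per library. Gene positions and start windows are those of RefSeq (GRCh38.p14), and the tables held start windows for 3 of the 4 genes. Peak sequences, exons and proteins were not analysed here.

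The 4 genes and the gene lists were chosen with earlier results of these data known. Named genes are the 4 transporters, the targets of the knockdowns, other ABC transporters called or nearest to a peak, called genes of the barrier, apocrine and neighbour lists with UGCG, and the 5 genes with the highest r per transporter. LONP2, ABCC12 and the closest tested neighbours were named after their values were seen. As alternatives, the likelihood ratio test, DESeq2 (version 1.42.0), RLE factors, library sizes alone, other filters, 1 fit of all 6 libraries, a prior count of 2, a replicate block, the omission of each library, peak centres and the nearest RefSeq start were tried. The barrier lipid counts and the other named genes without control replicate 1 were added after the data were seen. Figures were drawn with matplotlib 3.10.9.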

Additional observations from a re-analysis of the deposited data

Results flagged for a closer look

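ABCA4 and NIPAL4 differed between the knockdowns in the direct comparison of CHD4 siRNA with TRPS1 siRNA, which does not use the shared control libraries. For ABCA4 the log2 fold change was -2.62 (SE 0.35, adjusted p = 0.0903, edgeR), with 3.08 and 3.21 CPM in CHD4 siRNA against 14.3 and 24.5 CPM in TRPS1 siRNA. For NIPAL4 it was 1.27 (SE 0.26, adjusted p = 0.130, edgeR), with 11.7 and 9.63 CPM in CHD4 siRNA against 4.32 and 4.53 CPM in TRPS1 siRNA. Both pass an unadjusted p under 0.05 with a fold change over 2, as 2.12% and 1.56% of all tested genes do in the higher and lower direction, and neither passes the adjusted threshold in the quasi-likelihood test.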

How the results depend on the processing

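With 2 libraries a group, an exact permutation test of 1 gene cannot go below p = 0.333. ABCA12 upon TRPS1 silencing was positive in 14 of 14 alternatives and ABCC11 negative in 14 of 14, ABCA4 was called in all 13 in which it was tested, and it was not tested with over 2 CPM required in every library. Library sizes alone moved the median of all genes by 0.13 in each knockdown relative to TMM, and ABCA12 then had 1.40 and 1.12. Without 1 library each, the log2 fold changes for TRPS1 siRNA ranged from 0.98 to 1.66 (ABCA12), -1.50 to -1.28 (ABCC11), 2.21 to 3.47 (ABCA4) and -0.22 to 0.33 (ABCC5). For CHD4 siRNA they ranged from 0.71 to 1.38 (ABCA12), -1.78 to -1.19 (ABCC11), -0.41 to 0.85 (ABCA4) and 0.09 to 0.38 (ABCC5), and between the knockdowns from -0.40 to 0.20 (ABCC11) and -0.074 to 0.46 (ABCC5). ABCA12 upon CHD4 silencing also dropped under the fold threshold without a filter (0.98), with the filter at 0.5 CPM (0.97) and when the 6 libraries were fitted together (0.99). The causes were not tested.

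Over all genes, 730 were called higher for TRPS1 siRNA without control replicate 1 and 727 for CHD4 siRNA. For TRPS1 siRNA, leaving out a library gave 32 to 2457 higher and 42 to 1847 lower calls, family counts of 2 to 6 and 0 to 5, and 0 to 6070 genes at an adjusted p under 0.05, the highest without control replicate 2. For CHD4 siRNA it gave 40 to 2255, 51 to 1714, 1 to 4, 0 to 3 and 0 to 3874, again highest without control replicate 2. Between the knockdowns it gave 243 to 333 higher and 172 to 399 lower calls, 0 to 2 and 1 to 1 family genes, and 0 to 103 genes at an adjusted p under 0.05. Without a filter there were 635 higher and 724 lower calls for TRPS1 siRNA, 730 and 673 for CHD4 siRNA with 111 at an adjusted p under 0.05, and 463 higher between the knockdowns with 424. With library sizes alone 254 and 222 genes were lower in TRPS1 and CHD4 siRNA, and 1 family gene was lower in TRPS1 siRNA. With over 2 CPM in every library there were 2 family genes higher in TRPS1 siRNA, and 178 higher and 135 lower calls between the knockdowns. With the filter at 0.5 CPM 1 family gene was higher in CHD4 siRNA, and when the 6 libraries were fitted together 127 genes were lower between the knockdowns. At an adjusted p under 0.05 the likelihood ratio test gave 34, 58 and 570 genes in the 3 comparisons, and DESeq2 39, 50 and 456.

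The labels do not say what a replicate number shares, and the deviations of same-numbered libraries correlated with r = 0.051 and 0.0095 between control siRNA and the knockdowns and 0.615 between the knockdowns, so the numbers were not taken as pairs. A replicate block gave 741 and 582 higher calls in TRPS1 and CHD4 siRNA, and 32, 44 and 3372 genes at an adjusted p under 0.05, and with it ABCA4 had an adjusted p of 0.0133 upon TRPS1 silencing. Taking the nearest RefSeq start site left 4 of the 5 peaks with these genes, and peak centres left the count within 5 kb at 3. A stricter subset of peaks was not run because the list has no score. Depth limits ABCA4, with 24 counts in the shallowest value, more than the other 3 genes.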
